A study of Rosa roxburghii with 15 samples.

Results

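RNA-seq of young fruit was compared with RNA-seq of flower in R. roxburghii, the chestnut rose, a shrub of the Rosaceae that is grown for its fruit. Both tissues came from seedlings of a wild stock that grew outdoors in pots, 1 plant a pot. Young fruit was taken at 50 days after flowering, in July, and flower in full blossom, in May, and these 2 differences between the groups cannot be told apart. The comparison rests on 6 of the 15 libraries of the study, 3 of young fruit and 3 of flower, picked by their labels, and the other 9 are mature fruit at 120 days after flowering, leaf and stem. The labels speak of 2 biological replicates of 3 plants and of a TruSeq kit, whereas the study's methods speak of 3 biological replicates and of strand-specific libraries. Each library was counted as 1 sample, so a p-value reflects the spread among libraries of a tissue, and that spread may in part be technical. Values were available for 63727 unigenes, which are the assembled transcript groups that stand in for genes where no genome is used. Of these, 163 carry the name of a MYB as their best match in other species, and those 163 unigenes are described one group at a time. The name of a best match is not proof of the same role in R. roxburghii.

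Fruit set is the step from open flower to growing fruit. After pollination the petals and stamens wither, while the ovary and, in roses, the cup of tissue around it enlarge into the hip. MYB proteins are transcription factors with a DNA-binding domain built of 1 or more repeats, each folded into helices. In model plants, members of the family switch on anthocyanin and flavonol synthesis, hold back phenylpropanoid synthesis, build secondary walls, set the fate of hair cells on the epidermis, and control stamen growth. A whole flower and a whole fruit hold different cells, so fewer cells of a type and less RNA per cell cannot be told apart in such samples. No cell type markers could be set, since only the MYB unigenes are paired with names in the sources used here, and the tissue labels were not checked against markers.

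The only stretches of MYB unigenes in the sources used here are the primers of the study's qRT-PCR assays, which cover 12 MYBs. Those of 5 MYBs are shown, namely all that belong to the repressor and flavonol groups described first and were called in either direction. No part of them is marked by capitals.
MYB4 (DN142862_c0_g1), sense primer: ggtgtgccagtaattcttgat
MYB4 (DN142862_c0_g1), antisense primer: gttgtagacttcgttggatga
MYB308 (DN144022_c3_g4), sense primer: gtgtatgaagcctgatgatgagat
MYB308 (DN144022_c3_g4), antisense primer: tgcgtcgttgcggtaaga
MYB6-like (DN144339_c1_g4), sense primer: atgcctcgctgctctgaa
MYB6-like (DN144339_c1_g4), antisense primer: tgtggtgacctgaacttgga
MYB12 (DN111034_c0_g1), sense primer: tcagagaacaccgactaacct
MYB12 (DN111034_c0_g1), antisense primer: gcctccaacaacaacaataaca
MYB3 (DN147128_c3_g4), sense primer: aatcacaaccaccaccaacac
MYB3 (DN147128_c3_g4), antisense primer: gcttcagatagacatcacattcca
The first 4 of these unigenes were higher in young fruit and the last was lower. Of the 12 MYBs with primers, 5 were higher in young fruit, 1 was lower and 6 were not called. Beside this, 22.7% of all tested unigenes were higher and 16.3% lower, and of all tested MYBs 26.1% and 30.3%.

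The transcriptomes of young fruit and flower differed in a large share of unigenes. Expression is given as FPKM, the mapped fragments scaled by unigene length and by library size, and was compared as log2(FPKM + 0.1) with limma over all 15 libraries. A unigene was called where its p adjusted after Benjamini-Hochberg over all tested unigenes was at most 0.01 and its log2 fold change at least 1 in size. All fold changes are young fruit over flower on the log2(FPKM + 0.1) scale, which understates the change of low unigenes. Of 51175 unigenes that passed the filter of more than 0.1 FPKM in at least 3 libraries, 11613 (22.7%) were higher in young fruit and 8330 (16.3%) were lower. Higher calls thus made up 58.2% of all calls. The excess of higher calls lay among low values. Among 28830 unigenes with at least 1 FPKM in at least 3 libraries, 17.3% were higher in young fruit and 19.8% were lower, and higher calls made up 46.7% of all calls. With a pseudocount of 1 in place of 0.1, the share of higher calls was 48.4%. Pearson's r of log2(FPKM + 0.1) across unigenes ran from 0.947 to 0.964 within a tissue, and from 0.799 to 0.820 for a young fruit library paired with one of flower.

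More unigenes were listed in young fruit than in flower, but fewer MYBs were. Young fruit listed 44202, 43593 and 44904 unigenes above 0 FPKM, against 37803, 37994 and 37974 in flower. The 2 sets of libraries did not overlap, and the difference of 6309 had p = 0.1 by an exact two-sided permutation test, the smallest p that 3 against 3 libraries allow. At 1 FPKM or more, 22985 ± 85.6 unigenes were listed in young fruit and 22964 ± 242 in flower (SD, n = 3 each, exact permutation p = 1). The files hold no read counts, but values below 0.15 FPKM fall in steps whose ratio gives the relative depth of 2 libraries. By the commonest ratio of these steps, young fruit 1 and 2 had about the depth of flower 1, young fruit 3 was deeper by 0.35 on the log2 scale, and flower 2 and 3 were deeper by 0.1. Depths from these steps are poorly determined, since the commonest ratio held for 85 of 846 unigenes compared in young fruit 1 and 54 of 815 in young fruit 2. The study reports total reads for its samples, which were not used here. The part of depth in the numbers listed was not tested. Among MYBs, 126, 124 and 130 were above 0 FPKM in young fruit, against 135, 131 and 134 in flower, a difference of -6.67 with the same exact permutation p of 0.1. At 1 FPKM or more the MYBs numbered 81, 83 and 86 in young fruit, against 94, 95 and 93 in flower.

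Outside the MYB family the largest differences belonged to unigenes that the sources used here do not pair with a name. DN134743_c0_g1 had 465, 541 and 446 FPKM in young fruit, against 0, 0 and 0.0501 FPKM in flower (log2 fold change 12.04 ± 0.19 SE, adjusted p = 5.01e-13). DN147226_c3_g11 had 123, 125 and 128 FPKM in young fruit, against 0 FPKM in all 3 flower libraries (adjusted p = 9.56e-12). In the other direction, DN141514_c0_g1 had 0 FPKM in all 3 young fruit libraries, against 520, 524 and 487 FPKM in flower (adjusted p = 4.58e-14). These 3 unigenes were near silent in 1 tissue and abundant in the other. The last of the 4 was DN142686_c1_g1, which had 0.0624, 0.620 and 0 FPKM in young fruit, against 672, 678 and 670 FPKM in flower (log2 fold change -11.53 ± 0.79 SE, adjusted p = 4.49e-08). In all, 9050 unigenes had values in every young fruit library but 0 FPKM throughout flower, and 3251 showed the reverse. Of these, 1351 reached a mean of 1 FPKM in young fruit and 775 reached it in flower.

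**Figure D1:**
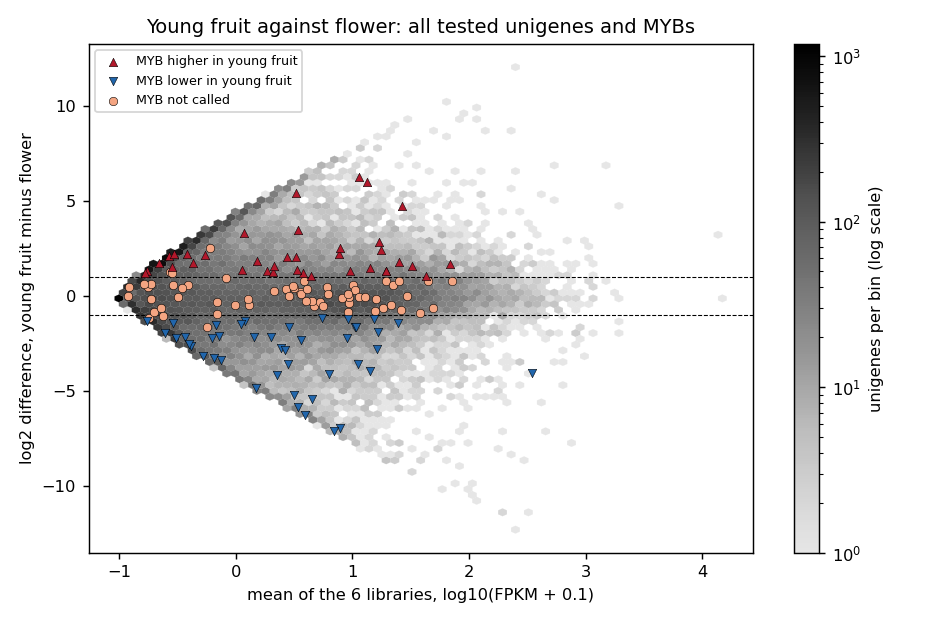
Mean level of the 6 libraries, as log10(FPKM + 0.1), against the log2 difference young fruit minus flower for 51175 tested unigenes (grey bins) and 142 tested MYBs (symbols), with dashed lines at a log2 difference of 1 in each direction. The 37 MYBs higher in young fruit and the 43 lower spread over the whole range of levels, and the slanting edges of the cloud are unigenes listed at 0 in 1 tissue.

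Of the 163 MYBs, 142 passed the filter, 37 of them (26.1%) were higher in young fruit, 43 (30.3%) were lower and 62 were not called. Against 22.7% and 16.3% of all tested unigenes, the share of MYBs that were lower stood above that of all unigenes, and the share that were higher was close to it. With at least 1 FPKM in at least 3 libraries, 26.4% of MYBs were higher and 32.7% lower, against 17.3% and 19.8% of all unigenes, so both shares of MYBs then stood above those of all unigenes. The median log2 fold change was -0.06 over the 142 MYBs and 0.0 over all tested unigenes, and the median absolute log2 fold change was 1.30 over the MYBs and 1.03 over all. In all 80 called MYBs the 3 young fruit libraries did not overlap with the 3 flower libraries. The thresholds of a call make such separation likely, and its share among all called unigenes was not taken. All 3 young fruit libraries lay above those of flower in 47 MYBs (33.1%, against 32.0% of all tested unigenes) and below them in 55 (38.7%, against 28.8%). At a mean of 10 FPKM or more in the higher tissue, 15 of 48 MYBs were higher in young fruit and 14 were lower, and 16.7% of all unigenes at that level were higher and 21.5% lower. Below 1 FPKM, 9 of 39 MYBs were higher and 10 lower, and 26.4% of all unigenes were higher and 11.04% lower. The other 21 MYBs were too low to be tested. Of the 163, 8 are listed at 0 in all 6 libraries.

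**Figure D2:**
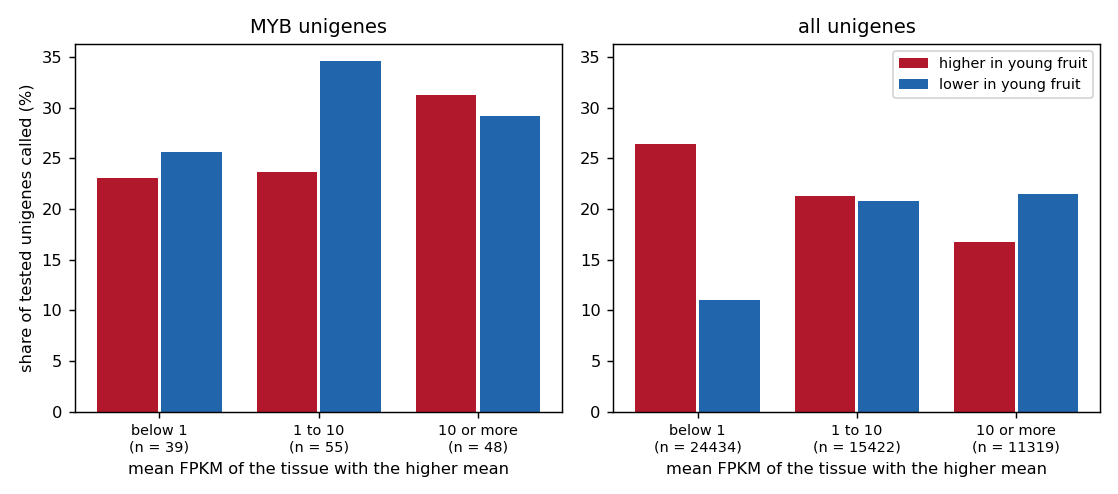
Share of tested unigenes called higher (red) or lower (blue) in young fruit than in flower, in percent, for MYBs (left) and all unigenes (right), grouped by the mean FPKM of the tissue with the higher mean. Below 1 FPKM the shares of all unigenes are 26.4% higher and 11.04% lower, whereas those of MYBs are 23.1% and 25.6%.

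The summed level of the MYBs was lower in young fruit, and this order turned on 1 unigene. The FPKM of the 163 MYBs summed to 1235, 1258 and 1266 in young fruit, against 1706, 1730 and 1706 in flower. DN145829_c0_g2, matched to an R2R3-like MYB of aspen, had 40.7, 42.8 and 35.9 FPKM in young fruit, against 665, 677 and 640 FPKM in flower (log2 fold change -4.05 ± 0.25 SE, adjusted p = 1.64e-08). Its mean was 16.6 times lower in young fruit. Without it the sums were 1194, 1215 and 1230 in young fruit, against 1041, 1053 and 1066 in flower, so the order of the tissues turned round. The 5 most abundant MYBs of young fruit were DN111034_c0_g1 (MYB12) at 105 ± 9.71 FPKM, DN146126_c4_g1 (ETC1) at 89.7 ± 4.74 FPKM, DN133642_c0_g1 (MYB1R1) at 58.3 ± 1.44 FPKM, DN144228_c3_g1 (MYB3R-3) at 57.0 ± 4.91 FPKM and DN144022_c3_g4 (MYB308) at 51.0 ± 2.01 FPKM (SD, n = 3). After DN145829_c0_g2, the most abundant in flower were DN144159_c2_g1 (MYB-like protein X) at 60.4 ± 0.752 FPKM, DN146126_c4_g1 at 53.1 ± 3.34 FPKM, DN146459_c2_g1 (MYB82-like) at 49.2 ± 2.83 FPKM and DN144924_c2_g5 (MYB-like family protein) at 36.2 ± 1.24 FPKM. Only DN146126_c4_g1 was among the 5 most abundant in each tissue. DN144159_c2_g1 had 39.4, 36.1 and 40.1 FPKM in young fruit, against 61.2, 59.7 and 60.3 FPKM in flower (log2 fold change -0.65 ± 0.08 SE, adjusted p = 1.49e-05) and was not called, and DN144924_c2_g5 had 13.9, 10.7 and 15.4 FPKM in young fruit, against 35.2, 35.9 and 37.6 FPKM in flower (log2 fold change -1.45 ± 0.12 SE, adjusted p = 2.00e-07).

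Homologs of phenylpropanoid repressors moved in opposite directions. In Arabidopsis MYB4 holds back genes of the phenylpropanoid pathway, and MYB308 and MYB330 of snapdragon lower phenolic acid and lignin synthesis when expressed in tobacco. Of 23 members 19 were tested, 8 were higher in young fruit, 5 were lower and 6 were not called, and the median log2 fold change was 0.80. This count, and that of each list after it, is to be read beside the shares of all tested unigenes, of which 22.7% were higher and 16.3% lower, and of all tested MYBs, at 26.1% and 30.3%. The strongest was DN142862_c0_g1, a MYB4 homolog, with 24.7, 28.8 and 25.8 FPKM in young fruit, against 0.266, 0.326 and 0.354 FPKM in flower (log2 fold change 6.0 ± 0.20 SE, adjusted p = 1.09e-10). Its mean was 83.8 times higher in young fruit, and its mean in mature fruit was 84.3 ± 17.6 FPKM. DN144022_c3_g4, matched to MYB308, had 49.6, 53.3 and 50.1 FPKM in young fruit, against 1.63, 1.81 and 2.02 FPKM in flower (log2 fold change 4.74 ± 0.15 SE, adjusted p = 7.74e-11). It was among the 5 most abundant MYBs of young fruit, and its mean was 28.0 times higher there. DN144669_c3_g5, matched to a MYB308-like protein, had 6.73, 6.48 and 5.85 FPKM in young fruit, against 0.105, 0 and 0.0725 FPKM in flower (log2 fold change 5.40 ± 0.39 SE, adjusted p = 6.55e-08). A second MYB4 homolog, DN138607_c0_g1, had 11.97, 15.6 and 9.93 FPKM in young fruit, against 2.53, 2.80 and 2.57 FPKM in flower (log2 fold change 2.18 ± 0.16 SE, adjusted p = 6.43e-08). DN144339_c1_g4, named for the repressor MYB6-like, had 27.5, 28.2 and 26.8 FPKM in young fruit, against 10.7, 10.9 and 11.9 FPKM in flower (log2 fold change 1.29 ± 0.08 SE, adjusted p = 2.30e-08), and DN143039_c2_g1, a MYB3-like unigene, had 0.128, 0.174 and 0.138 FPKM in young fruit, against 0 FPKM in all 3 flower libraries (adjusted p = 3.16e-04). Its call was lost with a pseudocount of 1, and its highest mean of the 5 tissues was in stem, at 0.527 ± 0.0243 FPKM.

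Among the repressor homologs that fell, DN146459_c0_g1 was matched to MYB330 and had 0.129, 0.0422 and 0.0352 FPKM in young fruit, against 5.43, 6.16 and 6.45 FPKM in flower (log2 fold change -5.22 ± 0.20 SE, adjusted p = 3.35e-10). DN138619_c0_g2, matched to MYB3, had 0.524, 0.775 and 0.483 FPKM in young fruit, against 10.97, 11.1 and 13.1 FPKM in flower (log2 fold change -4.11 ± 0.26 SE, adjusted p = 1.85e-08). MYB3 acts as a repressor of anthocyanin synthesis in Arabidopsis. Both were below 1 FPKM in every young fruit library, whereas DN147128_c3_g4, a further MYB3 homolog, differed less, with 5.31, 5.18 and 5.71 FPKM in young fruit, against 13.0, 13.5 and 11.5 FPKM in flower (log2 fold change -1.21 ± 0.09 SE, adjusted p = 1.35e-07). By its repeats the study typed DN147128_c3_g4 as an R1R2R3 MYB, so its place among the repressor homologs rests on the name of its best match. In sum, 4 of 6 tested MYB4 homologs were higher and 1 was lower, and 2 of 6 tested MYB308 homologs were higher and 1 was lower.

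Flavonol activator homologs gave 2 higher, 1 lower and 1 uncalled unigene of 4. In Arabidopsis MYB11, MYB12 and MYB111 switch on the flavonol branch of flavonoid synthesis. DN111034_c0_g1, matched to MYB12 and the most abundant MYB of young fruit, had 94.6, 114 and 107 FPKM in young fruit, against 32.8, 34.0 and 31.8 FPKM in flower (log2 fold change 1.67 ± 0.09 SE, adjusted p = 6.11e-09). DN145308_c4_g7, matched to MYB12b of apple, had 2.23, 2.49 and 2.01 FPKM in young fruit, against 0.503, 0.343 and 0.920 FPKM in flower (log2 fold change 1.85 ± 0.27 SE, adjusted p = 4.66e-05). Both MYB12 homologs were thus higher in every young fruit library. DN142862_c4_g4, the MYB11 homolog, had 1.01, 1.64 and 1.24 FPKM in young fruit, against 3.87, 3.90 and 5.12 FPKM in flower (log2 fold change -1.67 ± 0.20 SE, adjusted p = 8.16e-06), and DN145308_c5_g1, the MYB111 homolog, had 1.12 FPKM in young fruit 3 and 0 FPKM in the other 5 libraries of the pair, and was not called (adjusted p = 0.384).

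Of 8 anthocyanin activator homologs 7 were tested, 3 were lower in young fruit, 1 was higher and 3 were not called. MYB10 of apple and strawberry and MYB90 and MYB114 of Arabidopsis turn on anthocyanin pigments. DN147925_c5_g4, matched to MYB90-like, had 0 FPKM in all 3 young fruit libraries, against 14.0, 14.8 and 12.2 FPKM in flower (adjusted p = 1.19e-09). In the other tissues its mean was at most 0.0687 FPKM, so it was seen in flower and hardly elsewhere. DN149070_c1_g2, matched to MYB10, had 0.191, 0.123 and 0.102 FPKM in young fruit, against 4.46, 3.47 and 4.54 FPKM in flower (log2 fold change -4.16 ± 0.37 SE, adjusted p = 5.46e-07), and DN145802_c2_g12, matched to MYB114-like, had 0.314, 0.825 and 0.247 FPKM in young fruit, against 2.87, 2.07 and 1.75 FPKM in flower (log2 fold change -2.16 ± 0.45 SE, adjusted p = 0.00105). The MYB114-like unigene was highest in leaf, at 17.0 ± 5.99 FPKM, and its call was lost in a fit of the 6 libraries alone and with a pseudocount of 0.01. The exception was DN30159_c0_g1, a MYB10 homolog at low level, with 0.244, 0.379 and 0.358 FPKM in young fruit, against 0.0483, 0.0460 and 0.0452 FPKM in flower (log2 fold change 1.53 ± 0.30 SE, adjusted p = 6.61e-04). That call was lost with a pseudocount of 1 and the unigene did not reach the filter of at least 1 FPKM.

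**Figure D3:**
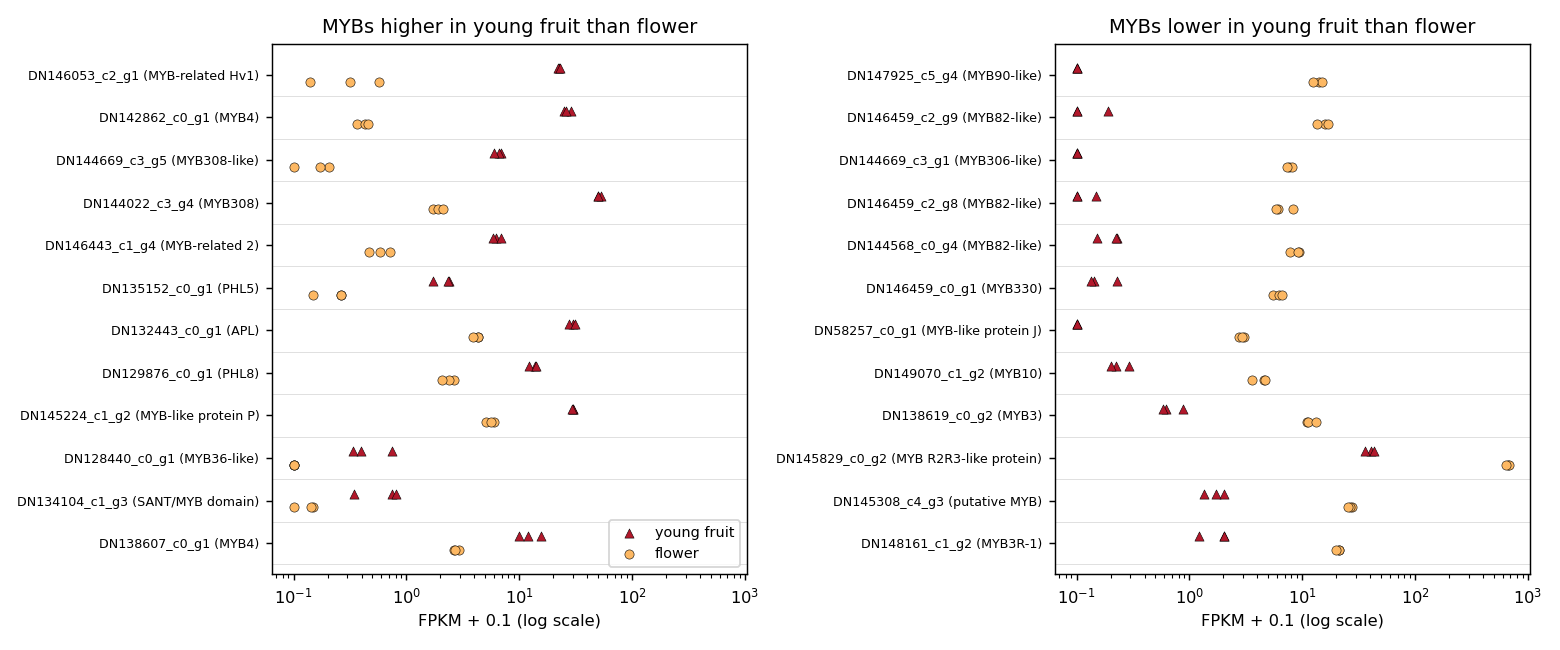
FPKM + 0.1 in each library, on a log scale, for the 12 MYBs with the largest positive log2 fold change (left) and the 12 with the largest negative one (right), young fruit as triangles and flower as circles. All 24 were picked from called MYBs whose 3 young fruit libraries lie clear of the 3 flower libraries. That separation was thus set by the choice, and 3 MYBs on the right are at 0 FPKM in every young fruit library.

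Homologs of hair and epidermal fate regulators, most of them MYB82-like, gave 8 lower calls and 1 higher call. MYB82 takes part in hair formation on Arabidopsis leaves, GL1 starts leaf hairs, WER sets the non-hair fate in the root epidermis, and MYB5 acts in seed coat and hair development. Of 16 members 14 were tested, 8 were lower in young fruit, 1 was higher and 5 were not called, beside 16.3% lower and 22.7% higher of all tested unigenes and 30.3% and 26.1% of all tested MYBs, with a median log2 fold change of -2.04 that was -1.51 without the 2 unigenes at 0 in 1 tissue. The lower calls numbered 5 with a pseudocount of 1, and all 5 lower calls of the repressor homologs were kept there. Of the MYB82-like unigenes alone, 7 of 9 tested were lower and none was higher. DN146459_c2_g9 had 0, 0.0887 and 0 FPKM in young fruit, against 15.9, 13.4 and 16.7 FPKM in flower (log2 fold change -6.96 ± 0.30 SE, adjusted p = 6.80e-10). DN146459_c2_g8 had 0, 0.0471 and 0 FPKM in young fruit, against 5.98, 5.74 and 8.16 FPKM in flower (log2 fold change -5.87 ± 0.27 SE, adjusted p = 1.39e-09), and DN144568_c0_g4 had 0.130, 0.124 and 0.0528 FPKM in young fruit, against 7.74, 9.18 and 9.08 FPKM in flower (log2 fold change -5.46 ± 0.44 SE, adjusted p = 2.04e-07). In each of these 3 the flower libraries reached 5.74 FPKM or more, and no young fruit library exceeded 0.130 FPKM. DN146459_c2_g11 and DN148549_c3_g2 were at 0 FPKM in all 3 young fruit libraries, against 0.190, 0.357 and 0.352 FPKM in flower (adjusted p = 6.22e-06) and 0.431, 0.130 and 0.697 FPKM in flower (adjusted p = 5.49e-04). DN146459_c2_g11 was higher in stem, at 1.08 ± 0.249 FPKM, and DN148549_c3_g2 in leaf, at 1.25 ± 0.696 FPKM, and both calls were lost with a pseudocount of 1.

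The other 2 tested MYB82-like unigenes were not called. DN146459_c2_g1 had 24.8, 28.0 and 25.6 FPKM in young fruit, against 49.7, 51.7 and 46.1 FPKM in flower (log2 fold change -0.91 ± 0.32 SE, adjusted p = 0.028), and its libraries did not overlap, but it passed neither threshold. DN148549_c3_g4, which is outside the rule for naming and was added after its values were seen, had 10.7, 12.4 and 10.2 FPKM in young fruit, against 9.76, 12.03 and 13.4 FPKM in flower (log2 fold change -0.07 ± 0.43 SE, adjusted p = 0.921), with overlapping libraries. Outside the MYB82-like unigenes, DN142862_c4_g2, matched to a MYB5-like repressor, had 0, 0.0679 and 0.0270 FPKM in young fruit, against 1.37, 1.26 and 1.18 FPKM in flower (log2 fold change -3.41 ± 0.37 SE, adjusted p = 3.24e-06), and 1 of 3 WER-like unigenes was higher. This was DN140431_c0_g1, likewise added after its values were seen, with 0.780, 0.465 and 0.467 FPKM in young fruit, against 0.0545, 0.144 and 0.103 FPKM in flower. Its call was not kept over the pseudocounts of 1 and 0.01 and was lost under the filter of at least 1 FPKM. Of the MYB unigenes, 8 belong to the Trinity component DN146459_c2, most of them MYB82-like, and 5 of the 8 were lower. A component gathers unigenes that share sequence, and reads may be split among its members, so their single values are uncertain. DN146459_c2_g4 of the same component, matched to a cold- and ABA-responsive MYB of chicory, was at 0 FPKM in all 3 young fruit libraries, against 0.665, 1.28 and 0.629 FPKM in flower (adjusted p = 2.05e-08), and its call was lost with a pseudocount of 1.

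The single-repeat ETC1 and ETC3 homologs gave 1 higher, 1 lower and 3 uncalled unigenes of 5. In Arabidopsis these small MYBs lack an activation domain and hold back the formation of leaf hairs. DN146126_c4_g1, the abundant ETC1 homolog, had 86.3, 87.7 and 95.1 FPKM in young fruit, against 49.3, 55.2 and 54.9 FPKM in flower (log2 fold change 0.76 ± 0.06 SE, adjusted p = 3.53e-07). Its libraries did not overlap, but its fold change stayed below the threshold. Among ETC3 homologs, DN149700_c2_g3 had 0.649, 0.971 and 0.349 FPKM in young fruit, against 3.74, 2.83 and 2.92 FPKM in flower (log2 fold change -2.19 ± 0.38 SE, adjusted p = 2.25e-04), and DN144174_c0_g4 had 5.12, 6.58 and 5.73 FPKM in young fruit, against 2.65, 2.44 and 3.23 FPKM in flower (log2 fold change 1.04 ± 0.23 SE, adjusted p = 0.00149). The higher call of DN144174_c0_g4 was lost without young fruit 2, at a log2 fold change of 0.95, and without flower 2, at 0.96, and with a pseudocount of 1. The third, DN134407_c0_g1, had 0.162, 0.688 and 0.317 FPKM in young fruit, against 0.210, 0.196 and 0.181 FPKM in flower (log2 fold change 0.58 ± 0.70 SE, adjusted p = 0.51), with overlapping libraries.

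Surface and root barrier homologs were split evenly. MYB96 of Arabidopsis promotes cuticular wax synthesis, and MYB36 builds the Casparian strip of the root endodermis. Of 14 members 11 were tested, 3 were higher in young fruit, 3 were lower and 5 were not called. DN144669_c3_g1, matched to MYB306-like, had 0 FPKM in all 3 young fruit libraries, against 7.60, 8.04 and 7.27 FPKM in flower (adjusted p = 7.51e-11), and DN144626_c1_g2, matched likewise, had 1.03, 1.14 and 1.19 FPKM in young fruit, against 5.42, 6.25 and 6.12 FPKM in flower (log2 fold change -2.30 ± 0.29 SE, adjusted p = 1.57e-05). Of the MYB306-like unigenes 2 were also higher, and they were added after their values were seen. DN145149_c1_g1 had 4.57, 4.67 and 3.78 FPKM in young fruit, against 1.13, 0.771 and 1.11 FPKM in flower (log2 fold change 2.02 ± 0.19 SE, adjusted p = 8.64e-07), and DN146048_c0_g6 had 1.65, 1.44 and 1.54 FPKM in young fruit, against 0.639, 0.383 and 0.614 FPKM in flower (log2 fold change 1.37 ± 0.24 SE, adjusted p = 2.80e-04). The MYB36-like unigenes went both ways as well. DN149746_c2_g7 had 3.26, 2.46 and 3.45 FPKM in young fruit, against 11.02, 16.7 and 16.5 FPKM in flower (log2 fold change -2.22 ± 0.31 SE, adjusted p = 3.21e-05), whereas DN128440_c0_g1, which is low throughout, had 0.294, 0.239 and 0.646 FPKM in young fruit, against 0 FPKM in all 3 flower libraries (adjusted p = 6.59e-06). Of the 3 higher calls, that of DN145149_c1_g1 alone was left with a pseudocount of 1.

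Secondary wall homologs were split as well. MYB46 is a master switch of secondary wall formation in Arabidopsis, and MYB63 acts on lignin genes. DN146433_c2_g3, matched to MYB46, had 4.68, 4.87 and 5.61 FPKM in young fruit, against 15.1, 14.95 and 18.5 FPKM in flower (log2 fold change -1.66 ± 0.13 SE, adjusted p = 1.26e-07), and the other MYB46 homolog, DN142862_c4_g3, had 0.628, 0.484 and 0.610 FPKM in young fruit, against 1.41, 1.59 and 1.83 FPKM in flower (log2 fold change -1.34 ± 0.21 SE, adjusted p = 8.86e-05). Both MYB46 homologs were thus lower in young fruit, and the call of DN142862_c4_g3 was lost with a pseudocount of 1. DN145308_c1_g1, matched to MYB86, had 13.6, 13.4 and 13.4 FPKM in young fruit, against 5.27, 5.51 and 5.36 FPKM in flower (log2 fold change 1.31 ± 0.11 SE, adjusted p = 3.11e-07). DN147741_c0_g1, the MYB63 homolog, had 0.208, 0.0854 and 0.113 FPKM in young fruit, against 0 FPKM in all 3 flower libraries (adjusted p = 9.50e-04), and its call was lost without young fruit 1, with a pseudocount of 1 and under the filter of at least 1 FPKM. The last of the 5 members was not called.

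Stamen and petal homologs gave 2 higher and 2 lower of 9 tested, of 10 members. In Arabidopsis MYB21 and MYB24 drive growth of the stamen filament and MYB108 acts in stamen maturation, and MYB305 of snapdragon acts on phenylpropanoid genes in petals. All called members were low, with at most 3.18 FPKM in any library of the pair. DN138638_c0_g1, matched to MYB305-like, had 0, 0 and 0.0431 FPKM in young fruit, against 0.576, 0.614 and 0.660 FPKM in flower (log2 fold change -2.67 ± 0.26 SE, adjusted p = 1.39e-06). The MYB21 homologs took opposite directions. DN148254_c1_g2 had 0.280, 0.131 and 0.350 FPKM in young fruit, against 1.08, 0.670 and 0.966 FPKM in flower (log2 fold change -1.54 ± 0.32 SE, adjusted p = 9.68e-04), and DN141656_c0_g1 had 2.81, 3.12 and 3.18 FPKM in young fruit, against 0.772, 0.982 and 1.21 FPKM in flower (log2 fold change 1.55 ± 0.31 SE, adjusted p = 6.74e-04). DN279740_c0_g1, a MYB108-like unigene, had 0.343, 0.447 and 0.227 FPKM in young fruit, against 0 FPKM in all 3 flower libraries (adjusted p = 1.02e-04), and a mean of 0.116 ± 0.0973 FPKM in stem. DN125895_c0_g1, matched to MYB305-like, had 0.342, 0.514 and 0.0572 FPKM in young fruit, against 0 FPKM in all 3 flower libraries, and did not pass the filter. The 2 lower members had their highest mean in stem, not in flower. For DN138638_c0_g1 the means were 1.63 ± 0.119 FPKM in stem and 0.617 ± 0.0421 FPKM in flower. For DN148254_c1_g2 they were 1.80 ± 0.446 FPKM and 0.906 ± 0.213 FPKM. Among the uncalled members, DN146459_c2_g7 (MYB108) and DN148048_c1_g5 (MYB24) had their highest mean in flower. DN146048_c0_g4 (MYB35-like) and DN138619_c0_g1 (MYB108-like) had it in young fruit, and DN147282_c0_g1 (GAMYB) in mature fruit. These uncalled members were added after their values were seen. None of the lower calls and 1 of the higher ones were left with a pseudocount of 1. With a pseudocount of 0.01 there was 1 call in each direction, and in a fit of the 6 libraries alone 1 of the lower calls was left.

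Homologs of the GARP class, whose single MYB-like repeat differs from that of other MYBs, gave 4 higher, 2 lower and 8 uncalled of 14 tested. APL of Arabidopsis sets phloem identity, EFM delays flowering, and PHL proteins are relatives of the phosphate starvation regulator PHR1. DN135152_c0_g1, matched to PHL5, had 2.28, 1.60 and 2.26 FPKM in young fruit, against 0.0497, 0.165 and 0.162 FPKM in flower (log2 fold change 3.28 ± 0.30 SE, adjusted p = 7.33e-07). DN132443_c0_g1, matched to APL, had 30.1, 27.7 and 31.3 FPKM in young fruit, against 4.24, 4.20 and 3.79 FPKM in flower (log2 fold change 2.84 ± 0.16 SE, adjusted p = 5.73e-09). DN129876_c0_g1, matched to PHL8, had 13.7, 12.1 and 14.0 FPKM in young fruit, against 2.54, 2.29 and 1.96 FPKM in flower (log2 fold change 2.50 ± 0.12 SE, adjusted p = 1.46e-09). All 3 had their highest mean of the 5 tissues in young fruit. DN146463_c1_g1, matched to EFM, had 44.0, 32.3 and 39.6 FPKM in young fruit, against 11.5, 10.8 and 10.9 FPKM in flower (log2 fold change 1.78 ± 0.10 SE, adjusted p = 4.29e-09). The lower calls were DN142101_c1_g2, another APL homolog, with 3.72, 3.25 and 5.44 FPKM in young fruit, against 29.1, 28.2 and 27.6 FPKM in flower (log2 fold change -2.78 ± 0.18 SE, adjusted p = 3.27e-08), and DN143003_c4_g3, matched to an Arabidopsis MYB family protein, with 0.649, 0.328 and 0.707 FPKM in young fruit, against 4.12, 4.93 and 4.54 FPKM in flower (log2 fold change -2.86 ± 0.26 SE, adjusted p = 6.64e-07). Of APL homologs 1 was higher and 1 lower of 5 tested, and DN139053_c0_g1, an APL homolog with primers, had 27.2, 26.0 and 26.0 FPKM in young fruit, against 18.0, 18.4 and 16.9 FPKM in flower (log2 fold change 0.57 ± 0.06 SE, adjusted p = 3.45e-06), below the threshold on the fold change.

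The MYB3R homologs numbered 2 and are named for proteins with 3 repeats that control genes of cell division in Arabidopsis. By repeats, the study typed DN148161_c1_g2 as an R2R3 MYB and gave DN144228_c3_g1 no type. DN148161_c1_g2, matched to MYB3R-1, had 1.91, 1.12 and 1.94 FPKM in young fruit, against 21.0, 21.0 and 19.8 FPKM in flower (log2 fold change -3.60 ± 0.24 SE, adjusted p = 3.46e-08). DN144228_c3_g1, matched to MYB3R-3, had 60.4, 51.4 and 59.3 FPKM in young fruit, against 32.3, 32.2 and 33.6 FPKM in flower (log2 fold change 0.80 ± 0.10 SE, adjusted p = 1.83e-05). It did not overlap between tissues either, but its fold change stayed below the threshold. The MYB44-like homologs, named for a regulator of abscisic acid responses and stomata in Arabidopsis, gave 2 higher of 3 and none lower. DN99221_c0_g1 had 49.3, 49.3 and 48.1 FPKM in young fruit, against 17.0, 15.7 and 16.9 FPKM in flower (log2 fold change 1.56 ± 0.09 SE, adjusted p = 5.52e-09), and DN144824_c3_g1 had 22.3, 20.7 and 19.9 FPKM in young fruit, against 8.73, 7.21 and 6.57 FPKM in flower (log2 fold change 1.48 ± 0.15 SE, adjusted p = 1.50e-06). The third, DN143203_c0_g1, lay in the same direction at 31.8, 34.1 and 29.2 FPKM in young fruit, against 17.3, 18.7 and 19.0 FPKM in flower (log2 fold change 0.79 ± 0.06 SE, adjusted p = 1.21e-07), without reaching the fold threshold.

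In the other single-repeat homologs, DN133642_c0_g1, matched to MYB1R1 of apple, had 59.8, 57.0 and 58.0 FPKM in young fruit, against 28.3, 29.1 and 26.5 FPKM in flower (log2 fold change 1.06 ± 0.09 SE, adjusted p = 2.33e-07). DN148732_c1_g1, a second MYB1R1 homolog, had 7.87, 6.23 and 6.66 FPKM in young fruit, against 26.1, 26.2 and 25.8 FPKM in flower (log2 fold change -1.90 ± 0.08 SE, adjusted p = 3.94e-10), and DN146326_c1_g5, matched to a MYBR protein of apple, was at 0 FPKM in all 3 young fruit libraries, against 0.425, 1.15 and 0.192 FPKM in flower (adjusted p = 6.84e-05). Its mean in stem was 0.238 ± 0.0559 FPKM, and its call was lost with a pseudocount of 1 and in a fit of the 6 libraries alone. The MYB1R1 homologs thus went both ways, and DN274153_c0_g1, the third, had 0.828 FPKM in flower 3 and 0 FPKM in the other 5 libraries of the pair. DN146332_c2_g2, matched to DIVARICATA, which sets flower asymmetry in snapdragon, had 15.7, 15.2 and 14.0 FPKM in young fruit, against 17.0, 16.7 and 16.6 FPKM in flower (log2 fold change -0.16 ± 0.07 SE, adjusted p = 0.061) and was not called. Neither stress-related homolog was called. DN143182_c1_g1, matched to MYB13, had 3.69, 17.2 and 17.5 FPKM in young fruit, against 14.7, 18.8 and 22.4 FPKM in flower (log2 fold change -0.81 ± 0.77 SE, adjusted p = 0.397), with young fruit 1 far below the other 2. DN137108_c0_g1, matched to MYB15, had 0.173, 0.263 and 0.174 FPKM in young fruit, against 0.178, 0.118 and 0.417 FPKM in flower (log2 fold change -0.07 ± 0.46 SE, adjusted p = 0.929). None of the 4 MYB315 homologs was called, and their log2 fold changes ran from -0.65 to 0.61.

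Unigenes matched to an unnumbered MYB of Rosa gave 1 higher and 1 lower of 6 tested. DN145308_c4_g3 had 1.92, 1.64 and 1.25 FPKM in young fruit, against 27.3, 26.5 and 25.4 FPKM in flower (log2 fold change -3.98 ± 0.14 SE, adjusted p = 1.45e-10), and DN146011_c1_g1 had 26.6, 29.5 and 27.0 FPKM in young fruit, against 10.5, 11.4 and 12.1 FPKM in flower (log2 fold change 1.28 ± 0.09 SE, adjusted p = 7.11e-08). DN143733_c1_g1, for which primers exist, had 11.5, 11.1 and 12.02 FPKM in young fruit, against 9.42, 10.1 and 8.98 FPKM in flower (log2 fold change 0.28 ± 0.09 SE, adjusted p = 0.0137) and was not called. Of 10 tested unigenes matched to MYB-like proteins named by a letter, 3 were higher and 3 lower. DN145224_c1_g2, protein P, had 29.7, 29.7 and 29.1 FPKM in young fruit, against 5.01, 5.93 and 5.50 FPKM in flower (log2 fold change 2.41 ± 0.13 SE, adjusted p = 5.03e-09). DN58257_c0_g1, protein J, had 0 FPKM in all 3 young fruit libraries, against 2.63, 2.94 and 2.80 FPKM in flower (adjusted p = 1.08e-09). DN128191_c0_g1, also protein J, had 0.273, 0.223 and 0.560 FPKM in young fruit, against 4.94, 4.78 and 5.53 FPKM in flower (log2 fold change -3.59 ± 0.28 SE, adjusted p = 1.42e-07), and DN70434_c0_g1, protein Q, had 0.724, 0.413 and 0.455 FPKM in young fruit, against 3.67, 4.22 and 4.52 FPKM in flower (log2 fold change -2.78 ± 0.27 SE, adjusted p = 1.43e-06). These 3 were thus low or at 0 in young fruit and between 2.63 and 5.53 FPKM in flower.

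The 26 other MYBs held 22 tested unigenes, of which 6 were higher and 9 lower. The largest positive log2 fold change of all tested MYBs belonged to DN146053_c2_g1, matched to MYB-related protein Hv1, with 22.3, 21.9 and 22.7 FPKM in young fruit, against 0.215, 0.0399 and 0.468 FPKM in flower (log2 fold change 6.26 ± 0.39 SE, adjusted p = 1.75e-08). Its mean was 8.04 ± 1.79 FPKM in stem and below 1 FPKM in mature fruit and leaf. DN146443_c1_g4, matched to MYB-related protein 2, had 6.09, 5.78 and 6.78 FPKM in young fruit, against 0.611, 0.486 and 0.362 FPKM in flower (log2 fold change 3.45 ± 0.29 SE, adjusted p = 2.90e-07). DN134104_c1_g3, matched to a SANT/MYB domain protein, had 0.651, 0.246 and 0.701 FPKM in young fruit, against 0.0476, 0 and 0.0438 FPKM in flower (log2 fold change 2.20 ± 0.38 SE, adjusted p = 2.04e-04). Of unigenes at 0 in 1 tissue of the pair, DN145308_c4_g2, matched to MYB121, had 0.324, 0.158 and 0.231 FPKM in young fruit, against 0 FPKM in all 3 flower libraries (adjusted p = 2.62e-05). DN143003_c0_g1, matched to MYB-related protein P, had 0 FPKM in all 3 young fruit libraries, against 0.185, 0.181 and 0.0876 FPKM in flower (adjusted p = 2.69e-04), and was higher in leaf, at 0.624 ± 0.169 FPKM. The calls of DN134104_c1_g3, DN145308_c4_g2 and DN143003_c0_g1 were lost with a pseudocount of 1. Counting all 163 MYBs, 6 were above 0 in all 3 young fruit libraries and at 0 in all 3 of flower, and 9 showed the reverse. Over all 63727 unigenes these counts were 9050 and 3251. The 3 unigenes whose best match is an insect protein did not pass the filter, and DN28565_c0_g1 was one of the 9, at 0.140, 0.0322 and 0.0320 FPKM in flower.

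**Figure D4:**
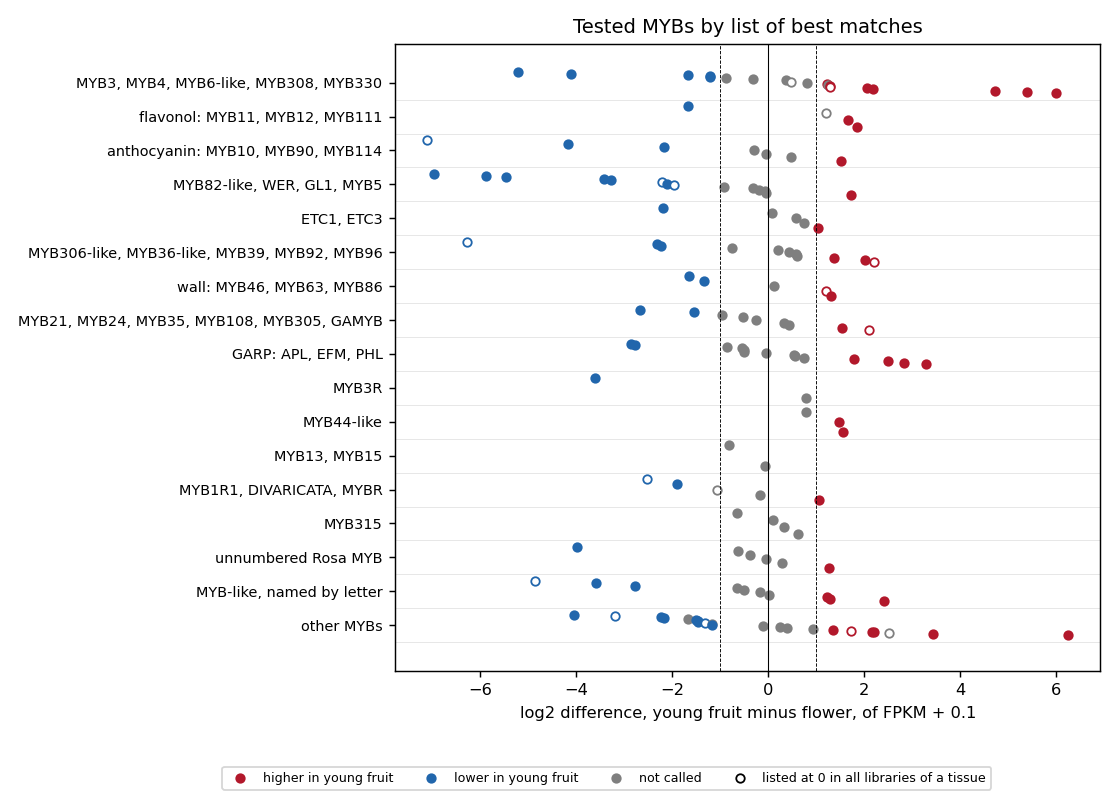
Log2 difference, young fruit minus flower, of each tested MYB, in rows by list of best matches, with calls in red (higher) and blue (lower), uncalled MYBs in grey and open circles for MYBs listed at 0 in all 3 libraries of a tissue. Dashed lines mark a log2 difference of 1 in each direction. The repressor row reaches from -5.22 to 6.0, and the MYB82-like row has 8 blue and 1 red circle.

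In 3 Trinity components, MYBs that share a component were called in opposite directions. In DN144669_c3 the MYB306-like unigene g1 was at 0 FPKM in every young fruit library and the MYB308-like unigene g5 was higher there. In DN138619_c0 the MYB3 homolog g2 was lower, as given above, and the MYB4 homolog DN138619_c0_g3 had 2.82, 2.63 and 3.04 FPKM in young fruit, against 0.899, 1.37 and 1.22 FPKM in flower (log2 fold change 1.23 ± 0.22 SE, adjusted p = 2.62e-04), a call that was lost with a pseudocount of 1. In DN145308_c4 the Rosa MYB g3 was lower, whereas the MYB12b homolog g7 and the MYB121 homolog g2 were higher. In all, 57 of the 163 MYBs shared a component with another MYB, and at most 8 did so in 1 component.

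By repeat type, as the study assigned it, 9 of 34 tested R2R3 MYBs were higher in young fruit and 16 were lower, beside 22.7% higher and 16.3% lower of all tested unigenes and 26.1% and 30.3% of all tested MYBs. Of 10 tested R1 MYBs 3 were higher and 4 lower, and of 14 tested atypical MYBs 4 were higher and 6 lower. Among 82 tested MYBs with no type given, 21 were higher and 15 lower. The study gave types to MYBs that it had found to differ between tissues in these same libraries, so these counts are not independent evidence of a direction.

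The libraries of the other tissues entered the fit through the filter and the shared spread, not through the fold changes, and show where the levels stood beyond the pair. Of the 37 MYBs higher in young fruit, 21 had their highest mean of the 5 tissues in young fruit, 9 in stem, 4 in leaf and 3 in mature fruit. Of the 43 lower in young fruit, 22 had it in flower, 13 in leaf, 6 in stem and 2 in mature fruit. The calls themselves leave flower out of the first count and young fruit out of the second. The same counts over all called unigenes were not taken, so these show nothing particular to MYBs. Mature fruit against leaf is a second comparison of fruit with another organ and shares no library with the first. In it 18.2% of all tested unigenes were higher in mature fruit and 18.8% were lower, and of all 142 tested MYBs 18.3% were higher and 35.9% lower. Of the 37 MYBs higher in young fruit than in flower, 11 (29.7%) were higher in mature fruit than in leaf and 8 (21.6%) were lower. With a pseudocount of 1 these counts were 6 higher and 7 lower, and with median-of-ratios scaling 9 higher and 9 lower, so which was larger depended on the processing. Of the 43 MYBs lower in young fruit, 5 (11.6%) were higher in mature fruit than in leaf and 28 (65.1%) were lower. These shares were not taken over all unigenes higher or lower in young fruit, so they too show nothing particular to MYBs. The 28 included DN145829_c0_g2, at 2.999 ± 1.35 FPKM in mature fruit and 159 ± 3.65 FPKM in leaf, and DN146459_c0_g1 (MYB330), at 0.00728 ± 0.0126 FPKM and 18.3 ± 2.18 FPKM (SD, n = 3 each). Among the 11, DN142862_c0_g1 (MYB4) was at 84.3 ± 17.6 FPKM in mature fruit and 0.473 ± 0.165 FPKM in leaf, and DN144022_c3_g4 (MYB308) at 41 ± 8.26 FPKM and 1.03 ± 0.188 FPKM. DN147128_c3_g4 (MYB3) went the other way in the 2 pairs, lower in young fruit than in flower but at 30.7 ± 1.74 FPKM in mature fruit and 0.870 ± 0.0830 FPKM in leaf.

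**Figure D5:**
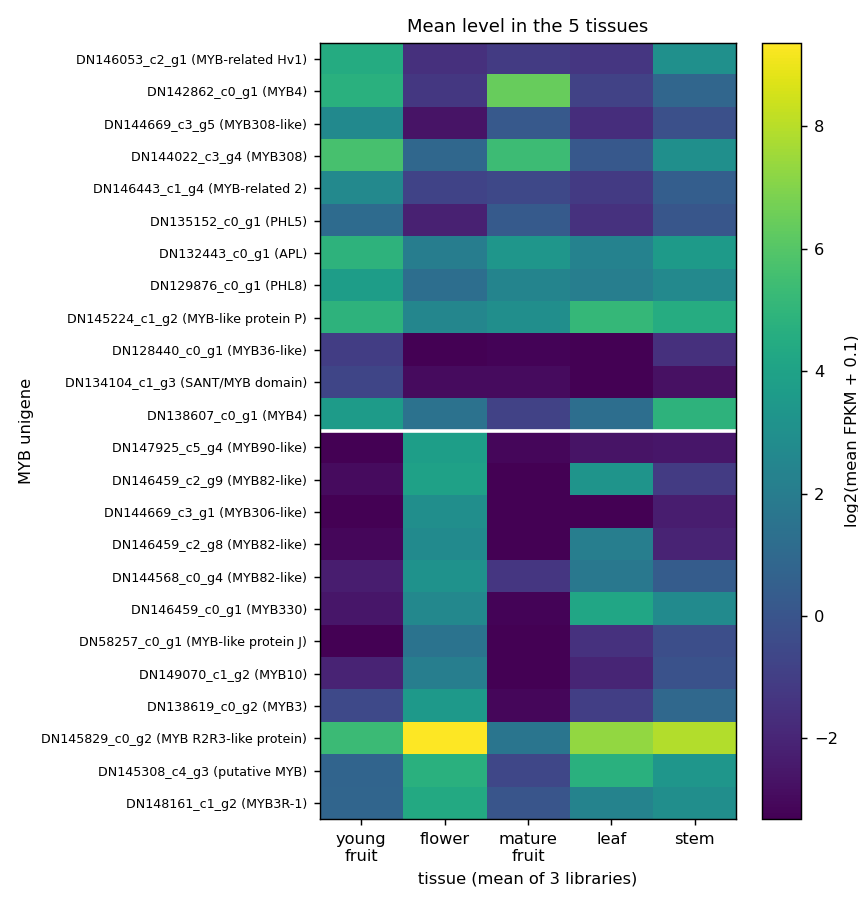
Mean level in the 5 tissues, as log2(mean FPKM + 0.1) by colour, of the 12 MYBs with the largest positive (above the white line) and the 12 with the largest negative (below it) log2 fold change of young fruit over flower. MYB4 and MYB308 (DN142862_c0_g1 and DN144022_c3_g4) are high in both fruit stages, and DN145829_c0_g2 is the brightest row in flower, at 661 FPKM.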

How the data were processed

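RNA-seq measured 15 libraries of R. roxburghii, 3 for each of 5 tissues, grouped by their labels. The authors trimmed reads with Trimmomatic, as the processing notes say, and assembled all tissues together with Trinity. They mapped the reads back with Bowtie2, and RSEM gave the abundances (tool versions: not given in the sources used here). What they deposited is an FPKM value for each unigene in each library. No counts are included, so counting intervals cannot be given. From these, log2(FPKM + 0.1) was fitted in R 4.3.3 with limma 3.58.1 over all 15 libraries, a mean for each tissue and a prior variance that depends on level, after a filter of more than 0.1 FPKM in at least 3 libraries. Tables and figures used Python 3.11.15, pandas 2.3.3, numpy 2.4.6, scipy 1.17.1 and matplotlib 3.10.9. In simulated data for this comparison, over 51175 unigenes, 39 of 67 unigenes changed by a factor of 4 were called (34 of 36 at 1 FPKM or more), 7 of 67 changed by a factor of 2 (7 of 21 at 1 FPKM or more), and none of 44870 unchanged ones. The factor acted on FPKM + 0.1, and changed unigenes that failed the filter counted as not called. Far fewer unigenes were changed than were called in the data, and all unigenes of a like level had the same spread. These rates therefore need not hold for the real comparison.

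MYBs were named from the study's table of best matches. The identifiers of 5 were corrected to those of the files. The members, the 17 lists and the rule for naming were chosen with earlier results of these data known. The rule names up to 12 called MYBs with the largest log2 fold change in each direction. Those had to have young fruit libraries that did not overlap with the flower libraries. It also names up to 4 of each list, the 12 with primers, the 5 most abundant in each tissue and those at 0 in 1 tissue of the pair. Called MYBs of components with opposite calls and, under the same condition of no overlap, 2 other unigenes in each direction complete it. Alternatives were other pseudocounts, filters, thresholds and scaling, no trend, the 6 libraries alone, a replicate block, and fits without each library of the pair.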

Additional observations from a re-analysis of the deposited data

How the results depend on the processing

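Low values decided the counts of calls. With a pseudocount of 1, 4480 unigenes were higher in young fruit than in flower and 4770 lower, and 23 MYBs were higher and 29 lower. With at least 1 FPKM in at least 3 libraries 4992 unigenes were higher and 5699 lower, and 29 MYBs were higher and 36 lower. With a log2 fold change of at least 2, 6726 unigenes were higher and 4467 lower, and 16 MYBs were higher and 29 lower. Leaving out 1 library gave 11119 to 11340 unigenes higher and 7570 to 8096 lower, 36 to 37 MYBs higher and 40 to 43 lower, and differences in unigenes listed of 5974 to 6629 and in MYBs listed of -8.33 to -5.33. Of the 80 called MYBs, 5 lost their call when a library was left out, namely DN144174_c0_g4, DN147741_c0_g1, DN143182_c1_g11, DN147278_c2_g2 and DN149725_c2_g2. Other settings cost more calls. Over the pseudocounts of 1 and 0.01, 22 of the 37 higher and 28 of the 43 lower calls were kept. In a fit of the 6 libraries alone, 36 higher and 35 lower calls were kept. Over 14 settings, which leave out the fold threshold of 2 and the stricter filter, 21 of 37 and 28 of 43 were kept. Of the MYBs lower in young fruit that were higher in mature fruit than in leaf, 3 were left with a pseudocount of 1, with one of 0.01 and with median-of-ratios scaling. Of the MYBs higher in young fruit, 6 were higher in mature fruit than in leaf and 7 lower with a pseudocount of 1. With median-of-ratios scaling 9 were higher and 9 lower. These settings for mature fruit and leaf, and those for the lists, were chosen after seeing the data.

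DN137108_c0_g1 (MYB15), which was not called, changed sign with median-of-ratios scaling, at a log2 fold change of 0.023, and ranged over -0.34 to 0.29 when a library was left out. Median-of-ratios scaling moved the median log2 fold change of all unigenes by 0.09. Same-numbered libraries of young fruit and flower did not deviate together (correlations of -0.002, 0.0076 and 0.0021), and with the replicate number as a block 11522 unigenes were higher and 8238 lower, and 37 MYBs were higher and 42 lower. Depth limits what the low values show, and an FPKM of 0 says only that a unigene is listed at 0.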
